A study of Mus musculus with 36 samples.

Results

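The replication-dependent histone genes of mouse embryonic stem cells (mESCs) were examined across an RNA-seq time course after blue light. Members were the genes of the count table whose symbol begins with Hist1h, Hist2h, Hist3h or Hist4h. They numbered 70 of 54842 genes, and 66 of them were among the 18193 genes that passed the filter on low counts. By histone type, 6 of 6 H1 genes, 17 of 20 H2A genes, 19 of 19 H2B genes, 11 of 12 H3 genes and 13 of 13 H4 genes passed. The 4 that did not pass were Hist2h3c1, with 0 counts in all libraries together, Hist2h2aa1 with 2, Hist1h2ap with 90 and Hist1h2ao with 173.

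The cells were transfected with LiTEC, a light-induced targeting construct, or were wild type (WT), and each kind was either put on a blue LED panel for 30 min (lit) or kept without blue light (dark). RNA was taken 0, 1 or 4 h after the light, and the dark cells were taken at the same 3 times. This gave 12 groups of 3 libraries, namely lit and dark LiTEC cells and lit and dark WT cells at each time. All 12 groups had received 2 µg/ml doxycycline for 2 days beforehand, and all were grown without serum in 2i medium, which holds inhibitors of MEK and of GSK3β, with the cytokine LIF. TRIzol extraction was followed by the TruSeq Stranded mRNA protocol. The series was designed to test what LiTEC does to transcription with and without light, and how transcription changes over the hours after light. The promoter of the construct, the share of cells carrying it and whether the line is a single clone are left out of the labels, and the construct's own RNA was not analysed here. Replicate 1 was batch 1 and replicates 2 and 3 were batch 2 in every group.

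Replication-dependent histone genes supply the linker histone H1 and the core histones H2A, H2B, H3 and H4 that package newly copied DNA, and they are transcribed mainly in S phase. Their genes lie in clusters, most lack introns, and their mRNAs end in a conserved stem-loop in place of a poly(A) tail. The stem-loop is bound by SLBP (gene Slbp), NPAT (gene Npat) activates the clusters from a nuclear condensate, the histone locus body, and the mRNAs are degraded within minutes when DNA synthesis stops. Embryonic stem cells spend much of their cycle in S phase and hold these mRNAs at high levels. Libraries of the kind made here select polyadenylated RNA, so the counts report the polyadenylated or carried-over part of a pool that is mostly not polyadenylated. In bulk RNA, fewer cells in S phase and less histone mRNA per cell cannot be told apart.

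In the mouse annotation used here (GENCODE M21 on GRCm38), all 70 members had an entry. Of the 56 Hist1 members on chromosome 13, 24 lay between positions 21715763 and 22043676 and 31 between 23531050 and 23934851, while the processed pseudogene Hist1h2al lay apart at 51202727 to 51203065. The Hist2 cluster held 10 members on chromosome 3 between 96219865 and 96270132, the Hist3 cluster 3 on chromosome 11 between 58948920 and 58956830, and Hist4h4 stood alone on chromosome 6 at 136801553 to 136804415. Of the 70, 67 were annotated as protein coding and 3 as pseudogenes, and 65 had a single exon block. Exons of 44 members overlapped no other gene, those of 23 overlapped a gene on the opposite strand and those of 7 a gene on the same strand. Whether the authors' counting used strand is not stated, so values of the overlapping members are uncertain.

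A 16-base stem-loop was found in the annotated transcript of 46 of 70 members, and 24 had none there. The form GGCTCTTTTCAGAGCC was the most frequent, in 26 members (3 H1, 10 H2A, 8 H2B and 5 H3), while the H4 genes carried other forms, most often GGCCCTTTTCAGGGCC in 7. Those of the members that the results turn on are shown with 5 bases on each side in lower case and the stem-loop in capitals.
Hist1h1c: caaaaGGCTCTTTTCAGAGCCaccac
Hist1h1d: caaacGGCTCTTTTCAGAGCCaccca
Hist1h1e: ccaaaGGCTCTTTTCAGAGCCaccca
Hist1h1t: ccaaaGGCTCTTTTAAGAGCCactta
Hist2h2ac: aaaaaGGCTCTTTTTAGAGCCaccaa
Hist1h2bj: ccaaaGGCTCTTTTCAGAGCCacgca
Hist1h3g: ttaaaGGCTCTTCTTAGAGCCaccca
Hist1h4d: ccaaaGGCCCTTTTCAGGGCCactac
Hist2h4: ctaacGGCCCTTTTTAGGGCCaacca
Hist4h4: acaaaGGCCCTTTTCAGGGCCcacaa
The annotated transcripts differ in how far they run beyond it. The Hist1h2bj, Hist1h3g and Hist2h2ac transcripts ended 23, 47 and 57 bases after the stem-loop, whereas those of Hist1h1t, Hist1h4d, Hist1h1c, Hist1h1e, Hist2h4, Hist4h4 and Hist1h1d ran on for 185, 770, 840, 1153, 1257, 2445 and 4884 bases. In all, 23 of the 46 ran on for at least 100 bases. The Hist1h1a and Hist1h1b transcripts held no stem-loop as annotated. A 50-base window shared with another gene made up over 50% of the transcript in 34 members, and 4 members shared none, so reads could not always be placed on a single member.

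Promoter sequence was available from RefSeq (GRCm38.p6) for 60 members, as the 250 bases before and 50 after the start. Both strands were searched for the H1 box AAACACA, the CCAAT box, the TATA box as TATAAA and the octamer ATTTGCAT, elements known from histone promoters, none of which contains another. The H1 box was in 5 of 6 H1 promoters, 2 of 17 H2A, 2 of 15 H2B, 0 of 10 H3 and 0 of 12 H4 promoters, against 7.18% of all 32851 promoters. The CCAAT box was in every H1, H2A, H2B and H3 promoter held and in 3 of 12 H4 promoters, against 37.4% of all. TATAAA was in 58.3% of member promoters and 13.6% of all, and the octamer was in 7 of 17 H2A and 6 of 15 H2B promoters, in no H1, H3 or H4 promoter, and in 1.74% of all. The 4 promoters shown belong to Hist1h1c, Hist1h1e and Hist2h2ac, which were called in light comparisons, and to the linker gene Hist1h1a, which was called in none of them. Capitals mark the matches to these motifs.
Hist1h1c, chr13:23738557-23738856, plus strand: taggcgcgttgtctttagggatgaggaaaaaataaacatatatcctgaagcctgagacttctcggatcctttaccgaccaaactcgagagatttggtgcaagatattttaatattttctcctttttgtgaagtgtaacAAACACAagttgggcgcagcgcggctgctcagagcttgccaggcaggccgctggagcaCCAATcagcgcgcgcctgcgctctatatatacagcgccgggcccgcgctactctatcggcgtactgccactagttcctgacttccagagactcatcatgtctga
Hist1h1e, chr13:23622509-23622808, minus strand: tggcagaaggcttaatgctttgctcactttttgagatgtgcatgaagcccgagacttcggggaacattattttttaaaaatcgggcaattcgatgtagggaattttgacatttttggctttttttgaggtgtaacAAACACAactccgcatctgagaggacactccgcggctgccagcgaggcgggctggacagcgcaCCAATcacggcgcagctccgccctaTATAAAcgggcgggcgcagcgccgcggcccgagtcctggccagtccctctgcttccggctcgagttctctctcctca
Hist1h1a, chr13:23763418-23763717, plus strand: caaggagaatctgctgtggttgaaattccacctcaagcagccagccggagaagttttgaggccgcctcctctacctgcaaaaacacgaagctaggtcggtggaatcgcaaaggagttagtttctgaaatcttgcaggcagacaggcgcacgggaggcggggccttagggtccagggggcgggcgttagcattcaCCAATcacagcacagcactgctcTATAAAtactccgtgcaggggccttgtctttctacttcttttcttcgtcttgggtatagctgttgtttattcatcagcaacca
Hist2h2ac, chr3:96220831-96221130, minus strand: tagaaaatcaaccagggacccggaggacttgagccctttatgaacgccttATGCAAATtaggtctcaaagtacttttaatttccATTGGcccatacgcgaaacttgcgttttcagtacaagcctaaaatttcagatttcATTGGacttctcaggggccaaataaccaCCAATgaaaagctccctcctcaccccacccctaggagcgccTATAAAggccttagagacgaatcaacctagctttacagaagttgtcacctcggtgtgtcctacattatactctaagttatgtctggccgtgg
The Hist1h1c and Hist1h1e promoters had the H1 box at -112 and -115 from the start, and Hist1h1a had none in this window. Hist2h2ac had no H1 box and was the only one of these 4 with the octamer. These matches describe the letters only.

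Total counts ran from 11132970 to 21842256 per library, with a median of 16663714. The loci Gm26917 and Gm42418, which take reads of ribosomal RNA, held 9.24% to 14.1% of counts in 34 libraries, 18.2% in lit LiTEC 0 h replicate 1 and 29.3% in dark WT 4 h replicate 3. Dark WT 4 h replicate 3 thus stands apart, and the sums, counts of calls and named changes of histone members that it moves are also given without it. Values of the other gene lists are given only with it. The 10 embryonic stem cell markers were all expressed, with a summed level of 3161 to 4848 CPM (counts per 1e6 scaled library counts) per library. The fibroblast list summed to 1017 to 1812 CPM, nearly all of it Fn1 with a mean of 1508 CPM, while Col1a1 averaged 2.25 CPM and 3 of 8 genes averaged under 0.1 CPM. Of 8 testis germ cell markers, 4 (Prm1, Prm2, Tnp1 and Acrv1) were at 0 in every library. The labels do not tell whether the replicates come from separate cultures. The spread behind each p-value is therefore that of these libraries, and it may be technical.

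Histone members held 0.396% to 0.701% of all counts, or 3877 to 7037 CPM after scaling by the trimmed mean of M values (TMM). H4 genes gave 33.9% of the histone counts, H1 genes 23.2%, H3 genes 20.9%, H2B genes 13.6% and H2A genes 8.48%. The counts were spread over many genes, with 11 members making up 49.96% of them, 22 members at a mean of at least 100 CPM and 51 at a mean of at least 10 CPM. On the CPM scale, which is not corrected for gene length, Hist1h1a (linker H1.1) and Hist1h4d (H4) took the most counts with a mean of 486 CPM each. Next came Hist1h1d (linker H1.3) at 271 CPM, Hist1h4a at 222 CPM, Hist1h1b (linker H1.5) at 218 CPM, Hist1h3e at 212 CPM and Hist1h1c (linker H1.2) at 211 CPM. Per kilobase of annotated exon, Hist1h1a led with 656 CPM per kb, ahead of Hist1h4k with 612, Hist1h4h with 429 and Hist1h4d with 427 CPM per kb, while Hist3h2a was lowest of the tested members with 0.164 CPM per kb. Annotated exon length was 312 bases for Hist1h4k and 7425 bases for Hist1h1d, so this order depends on the annotation. Poly(A) selection and reads shared between copies limit it further. The members known mainly from germ cells had few counts: over the 36 libraries the lowest, median and highest level was 1.29, 3.14 and 6.33 CPM for Hist1h1t, the testis linker histone, 1.23, 2.73 and 5.22 CPM for Hist1h2aa (testis H2A), and 0.622, 1.75 and 3.26 CPM for Hist1h2ba (testis H2B).

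Summed over all types, the 6 lit libraries averaged 5700 ± 725 CPM at 0 h, 4389 ± 365 CPM at 1 h and 6360 ± 374 CPM at 4 h (SD, n = 6 each). The 6 dark libraries averaged 6286 ± 418 CPM at 0 h, 5048 ± 413 CPM at 1 h and 6440 ± 417 CPM at 4 h. Both series were lowest at 1 h, and at 1 h the dark libraries lay at 4519, 5104 and 5585 CPM (lowest, median and highest), against 5757, 6214 and 7037 CPM at 0 h, with no overlap. In lit libraries the 1 h values were 3877, 4363 and 5018 CPM, against 4705, 5637 and 6863 CPM at 0 h, and these overlapped. The mean of every type was also lowest at 1 h, lit and dark. In dark libraries the H1 sum averaged 1496 ± 155, 1179 ± 95.7 and 1560 ± 255 CPM at 0, 1 and 4 h, and the H3 sum 1343 ± 117, 1065 ± 94.0 and 1311 ± 118 CPM. The H4 sum averaged 2037 ± 125, 1721 ± 181 and 2184 ± 191 CPM there, the H2B sum 869.7 ± 70.9, 666 ± 62.7 and 830.1 ± 157 CPM and the H2A sum 541 ± 25.5, 417 ± 41.9 and 555 ± 89.8 CPM. Dark WT 4 h replicate 3, the library with the most ribosomal RNA, was the highest of the 36 in H1 at 2042 CPM and in H2A at 719 CPM, and the lowest of the dark libraries in H2B at 525 CPM. Without it the 5 dark 4 h libraries averaged 6326 ± 347 CPM over all types, 1463 ± 108 CPM in H1, 522 ± 44.4 CPM in H2A, 891 ± 54.9 CPM in H2B, 1338 ± 109 CPM in H3 and 2112 ± 81.1 CPM in H4, so every type mean at 4 h still exceeded that at 1 h. The plot of summed levels shows these values library by library.

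**Figure D1:**
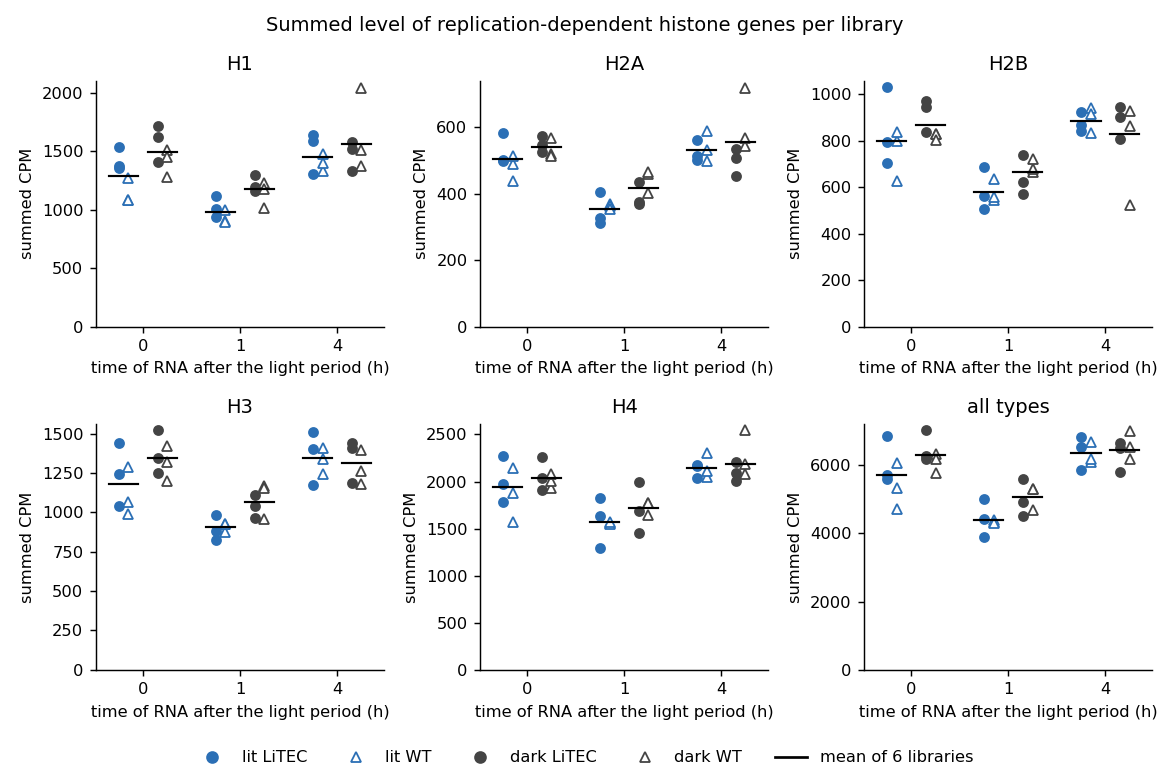
Summed level of the replication-dependent histone genes of each type, and of all types, in CPM (vertical axis) at 0, 1 and 4 h (horizontal axis). Blue marks lit and grey dark libraries, filled circles LiTEC and open triangles WT, and short horizontal lines mark the means of 6 libraries. The dark mean over all types is 6286 CPM at 0 h and 5048 CPM at 1 h, and the lit mean is 5700 and 4389 CPM.

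Changes between times without blue light were examined in the dark libraries, taken as the mean of the LiTEC and WT changes. Each time was a separate set of libraries, so time and the handling of each harvest cannot be told apart. At 1 h against 0 h in the dark, replication-dependent histone genes were lower as a group: 25 of 66 fell and 0 rose, and no called gene fell by more than 0.51 on the log2 scale. Over all genes tested, 0.698% fell and 0.616% rose. The median log2 fold change of the members was -0.35, against 0.00 over all genes, and 95.5% of members lay below 0, against 49.9% of all genes. The calls covered 4 of 6 H1, 6 of 17 H2A, 5 of 19 H2B, 9 of 11 H3 and 1 of 13 H4 genes, with type medians of -0.35, -0.38, -0.39, -0.33 and -0.26. All values carry the SE of the log2 fold change and the Benjamini-Hochberg adjusted p of edgeR's quasi-likelihood test over all genes tested.

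Among linker histone genes, Hist1h1d had 212, 235 and 282 CPM at 1 h (lowest, median and highest of 6), against 267, 316 and 348 CPM at 0 h. Hist1h1e (linker H1.4) had 102, 127 and 135 CPM at 1 h, against 122, 164 and 193 CPM at 0 h. The 1 h and 0 h ranges overlap at the edge for Hist1h1d, whereas the 1 h median of Hist1h1e lies inside its 0 h range, and log2 fold changes were -0.37 ± 0.06, adjusted p = 0.00062 for Hist1h1d and -0.37 ± 0.06, adjusted p = 0.000423 for Hist1h1e. Hist1h1a averaged 419.8 ± 47.3 CPM at 1 h and 538 ± 80.2 CPM at 0 h (SD, n = 6 each), a change of -0.35 ± 0.08, adjusted p = 0.0205. Hist1h1c averaged 189 ± 18.8 CPM at 1 h and 241 ± 25.9 CPM at 0 h, a change of -0.35 ± 0.09, adjusted p = 0.0394. These last calls were the less firm: leaving out 1 library at a time, Hist1h1a kept its call in 9 of 12 fits and Hist1h1c in 4 of 12, with adjusted p up to 0.0714 and 0.131. Hist1h1b missed the threshold at -0.24 ± 0.07, adjusted p = 0.0525.

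Among H2A genes, Hist2h2ac, an H2A gene of the Hist2 cluster, had 39.1, 41.5 and 48.2 CPM at 1 h, against 51.7, 58.6 and 66.2 CPM at 0 h. All 6 libraries at 1 h were below all 6 at 0 h, and the change was -0.49 ± 0.07, adjusted p = 8.22e-05. Hist1h2ak, one of the 3 H2A members with the most counts, had 62.5, 68.3 and 75.0 CPM at 1 h, against 78.3, 92.2 and 108 CPM at 0 h, also without overlap, at -0.42 ± 0.08, adjusted p = 0.00455. Hist1h2ae (-0.44 ± 0.09, adjusted p = 0.00865), Hist1h2ac (-0.44 ± 0.10, adjusted p = 0.0195), Hist1h2ah (-0.44 ± 0.11, adjusted p = 0.0318) and Hist1h2ab (-0.39 ± 0.08, adjusted p = 0.00689) fell by like amounts. Hist1h2al, annotated as a processed pseudogene yet another of these 3, was not called at -0.31 ± 0.10, adjusted p = 0.126.

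Among H2B genes, Hist1h2bn had 13.0, 14.7 and 18.4 CPM at 1 h, against 15.9, 21.8 and 26.6 CPM at 0 h, and fell by 0.49 on the log2 scale (adjusted p = 0.00416), with overlap of the ranges. Hist1h2bj had 17.9, 20.3 and 24.5 CPM at 1 h, against 22.1, 28.5 and 36.8 CPM at 0 h, at -0.47 ± 0.10, adjusted p = 0.0136. Hist1h2bh (-0.43 ± 0.09, adjusted p = 0.0106), Hist1h2bb (-0.41 ± 0.10, adjusted p = 0.0317) and Hist1h2bf (-0.40 ± 0.10, adjusted p = 0.0258) were called as well. The H2B gene with the most counts, Hist1h2bg, averaged 121 ± 10.1 CPM at 1 h and 158 ± 13.4 CPM at 0 h without overlap but was not called (-0.38 ± 0.11, adjusted p = 0.081), and Hist1h2bl was not called either (-0.45 ± 0.13, adjusted p = 0.0635).

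Of the H3 genes 9 of 11 fell. Hist1h3g had 80.3, 85.7 and 101 CPM at 1 h, against 104, 122 and 133 CPM at 0 h, with all 1 h libraries below all 0 h libraries, at -0.43 ± 0.07, adjusted p = 0.000302. The 3 H3 genes with the most counts fell too, Hist1h3e by 0.27 (adjusted p = 0.0169), Hist1h3f by 0.33 (adjusted p = 0.0119) and Hist1h3b by 0.36 (adjusted p = 0.0119) on the log2 scale.

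H4 genes had a single call, Hist2h4, with 85.2, 104 and 122 CPM at 1 h, against 142, 147 and 159 CPM at 0 h, without overlap, at -0.51 ± 0.08, adjusted p = 0.000423, the largest of the 25 called changes. The 3 H4 genes with the most counts were not called: Hist1h4d averaged 448 ± 34.6 CPM at 1 h and 504 ± 31.3 CPM at 0 h (-0.17 ± 0.07, adjusted p = 0.253), Hist1h4a was at -0.18 ± 0.08, adjusted p = 0.373 and Hist1h4h at -0.16 ± 0.10, adjusted p = 0.545. Outside the large clusters none was called. Hist4h4, the H4 gene alone on its chromosome, averaged 146 ± 24.8 CPM at 1 h and 187 ± 29.1 CPM at 0 h (-0.36 ± 0.14, adjusted p = 0.239), Hist3h2ba (H2B) was at -0.36 ± 0.14, adjusted p = 0.237, the pseudogene Hist3h2bb-ps at -0.74 ± 0.22, adjusted p = 0.0817 and Hist3h2a (H2A) at 0.53 ± 0.44, adjusted p = 0.705.

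In 19 members every dark 1 h library lay below every dark 0 h library, which held for 0.269% of all genes tested. Within batch 1 and within batch 2 the log2 change was -0.35 and -0.59 for Hist2h4 and -0.18 and -0.46 for Hist1h1e, and it was -0.51 and -0.47 for Hist2h2ac. The number called leaned on single libraries: it was 11 without dark LiTEC 1 h replicate 2, 14 without dark LiTEC 1 h replicate 3, 12 without dark WT 1 h replicate 1 and 16 without dark WT 0 h replicate 2. Hist1h1d, Hist1h1e, Hist1h2ab, Hist1h2ae, Hist1h2ak, Hist1h2bn, Hist1h3a, Hist1h3g, Hist2h2ac and Hist2h4 were called in all 12 such fits. With the replicate number as a block, 39 members were called. The share on the ribosomal RNA loci was alike, with medians of 11.04% at 1 h and 11.4% at 0 h, and the non-polyadenylated RNAs outside those loci, such as Rn7sk, summed to a median of 4357 CPM at 1 h, against 4654 CPM at 0 h; their part in the result was not tested.

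**Figure D2:**
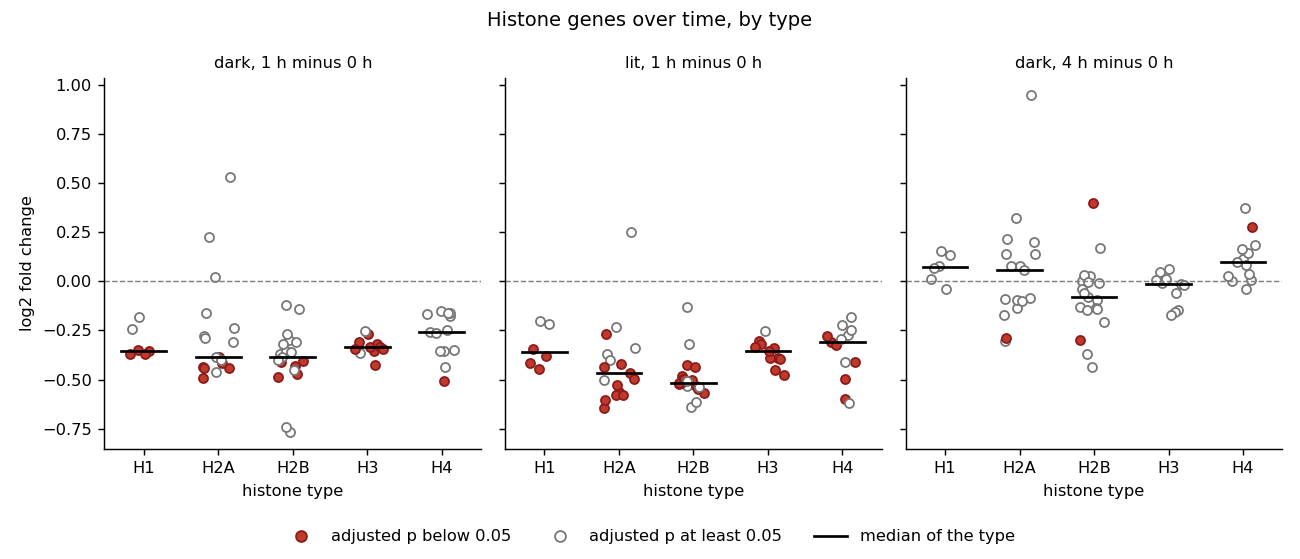
Log2 fold change of each tested member by histone type (horizontal axis) for dark 1 h against 0 h, lit 1 h against 0 h and dark 4 h against 0 h; filled points had an adjusted p below 0.05 and lines mark the type median. Nearly all points are below 0 in both comparisons of 1 h with 0 h, with 25 and 43 called, and they scatter about 0 at 4 h.

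The next 4 comparisons over time were chosen after the data had been seen. In lit libraries at 1 h against 0 h, 43 of 66 members fell and 0 rose, where 4.55% of all genes fell and 5.12% rose. The median was -0.42, against 0.00 over all genes, and 65 of 66 members lay below 0. The called members were 4 of 6 H1, 11 of 17 H2A, 12 of 19 H2B, 10 of 11 H3 and 6 of 13 H4 genes, and H2A and H2B had the lowest medians at -0.47 and -0.52. The change in Hist1h2ac was the largest, with 21.4, 25.4 and 30.2 CPM at 1 h, against 31.5, 41.2 and 47.9 CPM at 0 h, without overlap, at -0.65 ± 0.10, adjusted p = 3.94e-05. Hist1h2ak had 55.6, 59.3 and 73.9 CPM at 1 h, against 75.4, 93.1 and 112 CPM at 0 h, also without overlap, at -0.58 ± 0.08, adjusted p = 7.62e-06. Other H2A genes among the 12 largest changes were Hist1h2ae (-0.61), Hist1h2ag (-0.58), Hist1h2ab (-0.56) and Hist1h2ad (-0.53), and the H2B genes were Hist1h2bf (-0.57), Hist1h2bj (-0.55), Hist1h2bh (-0.53), Hist1h2bm (-0.52) and Hist1h2bc (-0.52).

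The H1 and H4 genes with the most counts, Hist1h1a and Hist1h4d, were both called in the lit libraries. Hist1h1a had 332, 354 and 444 CPM at 1 h, against 393, 532 and 625 CPM at 0 h, with overlap, at -0.45 ± 0.08, adjusted p = 0.00027. Hist1h4d had 378, 437 and 456 CPM at 1 h, against 469.9, 506 and 553 CPM at 0 h, without overlap, at -0.28 ± 0.07, adjusted p = 0.00431. Hist1h4i (-0.60 ± 0.14, adjusted p = 0.00398) and Hist2h4 (-0.50 ± 0.08, adjusted p = 6.3e-05) fell, as did Hist1h1d (-0.42 ± 0.06, adjusted p = 1.42e-05), Hist1h1e (-0.38 ± 0.06, adjusted p = 3.89e-05) and Hist1h1b (-0.34 ± 0.07, adjusted p = 0.000476). Hist1h1c was not called at -0.22 ± 0.09, adjusted p = 0.144. Of the Hist3 and Hist4 members, Hist3h2ba fell (-0.50 ± 0.14, adjusted p = 0.0204, called in 9 of 12 fits that leave out a library) and Hist4h4 (-0.30 ± 0.14, adjusted p = 0.205), Hist3h2a (0.25 ± 0.42, adjusted p = 0.816) and Hist3h2bb-ps (-0.51 ± 0.24, adjusted p = 0.2) were not called. In 10 members the 1 h libraries lay wholly below the 0 h libraries, against 1.09% of all genes. Median ribosomal RNA share was 11.3% at 1 h and 12.7% at 0 h in lit libraries, and the non-polyadenylated list had a median sum of 4471 CPM at 1 h and 4696 CPM at 0 h; their part in the result was not tested.

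Taken by cell kind, the dark change from 0 to 1 h was called in 11 members in LiTEC cells, all lower, where 0.181% of all genes fell and 0.0824% rose, and in 0 members in WT cells, where 0.033% fell and 0.0275% rose. The medians were -0.45 in LiTEC and -0.24 in WT cells. Hist2h4 had 122, 85.2 and 97.6 CPM in the 3 LiTEC libraries at 1 h, against 145, 159 and 153 CPM at 0 h, at -0.59 ± 0.12, adjusted p = 0.0153. In WT cells Hist2h4 had 105, 117 and 103 CPM at 1 h, against 144, 149.8 and 142 CPM at 0 h, at -0.42 ± 0.11, adjusted p = 0.223. In both cell kinds every 1 h library was below every 0 h library. The other members called in LiTEC cells were Hist1h2bj (-0.75), Hist1h2bn (-0.67), Hist1h2ac (-0.63), Hist2h2ac (-0.58), Hist1h2bh (-0.58), Hist1h2ak (-0.53), Hist1h2ab (-0.53), Hist1h3g (-0.51), Hist1h3a (-0.45) and Hist1h1d (-0.40). In WT cells 26 members had an unadjusted p below 0.05, DESeq2 called 3 and the replicate block 2, and 34 members had 1 h libraries wholly below 0 h libraries (5.09% of all genes), against 41 in LiTEC cells (5.19%). The counts at an unadjusted p, by DESeq2 and with the block were not set against all genes. The LiTEC count was 0 without dark 1 h replicate 2 or replicate 3, 1 without dark 0 h replicate 2 or replicate 3 and 5 without dark 0 h replicate 1, and it was 19 with the replicate block and 18 with DESeq2. Whether the change over time differs between LiTEC and WT cells was not tested.

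At 4 h against 1 h in the dark, 38 members rose and 0 fell, where 10.2% of all genes rose and 9.89% fell, and the median was 0.33, against -0.01 over all genes. This comparison shares its 1 h libraries with the dark comparison of 1 h with 0 h. The called members were 5 of 6 H1, 8 of 17 H2A, 8 of 19 H2B, 7 of 11 H3 and 10 of 13 H4 genes. Hist2h4 had 131, 152 and 219.7 CPM at 4 h, against 85.2, 104 and 122 CPM at 1 h, without overlap, at 0.59 ± 0.08, adjusted p = 2.79e-06. Hist1h4i had 72.7, 87.1 and 131 CPM at 4 h, against 38.8, 57.1 and 65.9 CPM at 1 h, also without overlap, at 0.73 ± 0.14, adjusted p = 0.000221. Hist4h4 had 183, 209.6 and 229.7 CPM at 4 h, against 106, 148 and 180.2 CPM at 1 h, at 0.52 ± 0.14, adjusted p = 0.00628. Every 4 h library of Hist4h4 was thus above every 1 h library. The largest change was that of Hist3h2ba, which has few counts, with 4.44, 7.11 and 11.3 CPM at 4 h, against 2.98, 4.28 and 5.85 CPM at 1 h (0.76 ± 0.14, adjusted p = 0.000113). The others of the 12 largest were Hist1h2ae (0.58), Hist1h4j (0.53), Hist1h2al (0.51), Hist1h1c (0.49), Hist1h2ak (0.47), Hist1h2ab (0.47), Hist1h2bj (0.46) and Hist1h4h (0.44). Without dark WT 4 h replicate 3, the library with the most ribosomal RNA, 47 members rose and 0 fell, with a median of 0.37, and Hist1h4c, Hist1h4d, Hist2h2ab and Hist1h2ai were no longer called. Hist2h4 then rose by 0.50, Hist1h4i by 0.62, Hist1h2ae by 0.52, Hist1h1c by 0.39 and Hist1h2ab by 0.39. Hist1h2ak then rose by 0.37 and Hist1h4h by 0.34, whereas Hist1h4j (0.58) and Hist1h2bj (0.56) rose more. Hist3h2ba and Hist4h4 stayed at 0.76 and 0.52. The highest 4 h values of Hist2h4 and Hist1h4i came from that library, and the other 5 reached at most 160.4 and 89.1 CPM. Hist1h2al had 250.4 CPM in that library and averaged 118 ± 15.6 CPM in the other 5 dark 4 h libraries; without it the change was 0.33, adjusted p = 0.000419, and within batch 1 and batch 2 it was 0.18 and 0.62.

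At 4 h against 0 h in the dark, 2 members rose and 2 fell, where 7.82% of all genes rose and 7.65% fell, and the median of the members was 0.00. Hist1h4h averaged 245 ± 37.6 CPM at 4 h and 202 ± 23.4 CPM at 0 h, at 0.28 ± 0.10, adjusted p = 0.0444, and Hist3h2ba averaged 7.44 ± 2.58 CPM at 4 h and 5.78 ± 2.41 CPM at 0 h, at 0.40 ± 0.13, adjusted p = 0.0372. Hist1h2af (-0.29 ± 0.08, adjusted p = 0.0177) and Hist1h2bn (-0.30 ± 0.09, adjusted p = 0.0271) fell. All 4 calls rested on single libraries: without dark WT 4 h replicate 3, the library with the most ribosomal RNA, 0 were called. The count was 1 without dark LiTEC 0 h replicate 2 or dark WT 0 h replicate 2, and 2 without dark LiTEC 4 h replicate 1 or 3 or dark WT 0 h replicate 1.

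Light was compared with dark within each cell kind and time. Right after the light (0 h), 5 members fell in lit WT cells and 0 rose, where 1.2% of all genes fell and 1.66% rose, and in lit LiTEC cells 0 were called, where 0.533% fell and 0.401% rose. In WT cells the 5 were 3 linker histone genes, Hist1h1b, Hist1h1c and Hist1h1e, and Hist2h2ac (H2A) and Hist2h2bb (H2B) of the Hist2 cluster. The medians over the 66 members were -0.14 in WT and -0.11 in LiTEC cells, with 53 and 48 members below 0, counts not set against all genes. Leaving out 1 library at a time, the medians ran from -0.234 to -0.0444 in WT and from -0.248 to -0.0213 in LiTEC cells. These comparisons use the dark 0 h and lit 0 h libraries that also enter the comparisons over time.

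Hist1h1c had 151, 151 and 163 CPM in the lit WT libraries at 0 h, against 224, 272 and 221 CPM in the dark ones. The lit values were all below the dark ones, and the log2 fold change was -0.62 ± 0.13, adjusted p = 0.0035. In LiTEC cells Hist1h1c had 204, 181 and 201 CPM lit, against 211, 262 and 258 CPM dark, at -0.31 ± 0.13, adjusted p = 0.345. All 3 lit LiTEC libraries of Hist1h1c were below the dark ones as well, though the gene was not called.

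The H2A gene Hist2h2ac had 38.5, 38.9 and 42.8 CPM in lit WT libraries, against 58.3, 65.0 and 51.7 CPM in dark ones, without overlap, at -0.55 ± 0.10, adjusted p = 0.001. In LiTEC cells Hist2h2ac had 41.7, 45.8 and 54.4 CPM lit, against 58.9, 57.5 and 66.2 CPM dark, also without overlap, at -0.36 ± 0.10, adjusted p = 0.0773. Lit libraries were thus lower in both cell kinds, with the call in WT cells. Hist1h1e had 105, 109.8 and 123 CPM in lit WT libraries, against 122, 174 and 154 CPM in dark ones, which overlap, at -0.40 ± 0.08, adjusted p = 0.00409. Hist2h2bb had 44.7, 32.3 and 40.0 CPM in lit WT libraries, against 59.3, 54.0 and 58.2 CPM in dark ones, without overlap, at -0.56 ± 0.13, adjusted p = 0.012. The highest lit WT library of Hist2h2bb was thus below the lowest dark one. Of these genes Hist1h1e overlaps Hist1h2be and Gm11398 on the same strand, Hist2h2bb overlaps Gm42743 on the same and Gm20628 on the opposite strand, and Hist2h2ac overlaps Gm44492 on the opposite strand, so their counts are uncertain. Hist1h1b in WT cells was at -0.34 ± 0.09, adjusted p = 0.0346. In LiTEC cells Hist1h1e was at -0.27 ± 0.08, adjusted p = 0.156, Hist1h1b at -0.14 ± 0.09, adjusted p = 0.667 and Hist2h2bb at -0.13 ± 0.13, adjusted p = 0.797.

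In WT cells at 0 h, Hist1h1c and Hist2h2ac were called in 6 of 6 fits that each left out a library, Hist1h1e in 5 of 6, Hist2h2bb in 3 of 6 and Hist1h1b in 1 of 6. The number called was 2 without lit WT 0 h replicate 2, 3 without lit WT 0 h replicate 1 or dark WT 0 h replicate 3, and 10 without lit WT 0 h replicate 3, and it was 8 with the replicate block. In LiTEC cells 6 members had an unadjusted p below 0.05, and DESeq2 and the replicate block called 1 each. The difference of the light effect between LiTEC and WT cells, which asks whether the construct changes the response, was called in 0 members at 0, 1 and 4 h, where 0.0165% of all genes were called higher and 0.0055% lower at 0 h and 0 at 1 and 4 h. At an unadjusted p below 0.05 there were 1, 0 and 3 members, and DESeq2 called 0 at each time. The 3 at 4 h were Hist1h1a, Hist1h2ab and Hist1h2al. Each had its highest level of the 36 libraries in dark WT 4 h replicate 3, the library with the most ribosomal RNA. Without that library 0 members were called at 4 h. The counts at an unadjusted p were not set against all genes. For Hist1h1c the difference at 0 h was 0.31 ± 0.18, adjusted p = 0.83, for Hist2h2ac 0.18 ± 0.14, adjusted p = 0.886 and for Hist2h2bb 0.43 ± 0.19, adjusted p = 0.764, so a difference between the cell kinds was not detectable at this depth and number of libraries.

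At 1 h, 2 members fell in lit WT cells and 0 rose, where 0.11% of all genes fell and 0.176% rose, and 0 were called in lit LiTEC cells, where 0.033% fell and 0.0824% rose. Hist2h2ac had 28.4, 31.8 and 32.0 CPM in lit WT libraries, against 39.1, 45.0 and 48.2 CPM in dark ones, at -0.52 ± 0.10, adjusted p = 0.0126. Hist1h1e had 77.5, 104 and 80.7 CPM in lit WT libraries, against 102, 121 and 121 CPM in dark ones, at -0.39 ± 0.09, adjusted p = 0.0308. Lit and dark WT libraries did not overlap for Hist2h2ac and did for Hist1h1e. In LiTEC cells Hist2h2ac was at -0.27 ± 0.10, adjusted p = 0.544 and Hist1h1e at -0.30 ± 0.09, adjusted p = 0.247. Both WT calls rested on single libraries: 0 members were called without lit WT 1 h replicate 1 or 3 or dark WT 1 h replicate 2 or 3, and 1 without dark WT 1 h replicate 1, while the replicate block called 4. In LiTEC cells 12 members had an unadjusted p below 0.05, 64 of 66 members lay below 0, DESeq2 called 0, 2 were called without lit LiTEC 1 h replicate 1 and 5 when the fit held only the groups compared. Neither the count at an unadjusted p nor that below 0 was set against all genes. At 4 h, 0 members were called in either cell kind, where 0.0055% of all genes rose and 0.0055% fell in LiTEC cells and 0 in WT cells. An unadjusted p below 0.05 was found for 1 member in LiTEC and 7 in WT cells, and DESeq2 called 0 in both. Those 7 members all had their highest level of the 36 libraries in dark WT 4 h replicate 3, the library with the most ribosomal RNA. Without that library 0 members were called in WT cells, and the count at an unadjusted p was not taken.

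Averaged over the cell kinds, which sets 6 lit against 6 dark libraries, 8 members fell at 0 h and 0 rose, where 2.61% of all genes fell and 2.76% rose. The calls were in 4 of 6 linker histone genes, 1 of 17 H2A, 1 of 19 H2B, 2 of 11 H3 and 0 of 13 H4 genes, and the medians were -0.26 for H1, -0.04 for H2A, -0.09 for H2B, -0.22 for H3 and -0.10 for H4; differences between types were not tested. Hist1h1c had 151, 172 and 204 CPM in lit libraries, against 211, 241 and 272 CPM in dark ones. All 6 lit libraries were below all 6 dark ones, and the log2 fold change was -0.47 ± 0.09, adjusted p = 0.000969. This was the only member so separated, where 0.643% of all genes were. Hist1h1e had 105, 119 and 164 CPM lit, against 122, 164 and 193 CPM dark, at -0.34 ± 0.06, adjusted p = 0.000368. Hist1h1d had 223, 253 and 284 CPM lit, against 267, 316 and 348 CPM dark, at -0.28 ± 0.06, adjusted p = 0.00338. Hist1h1b had 165, 207 and 267 CPM lit, against 211, 234 and 288 CPM dark, at -0.24 ± 0.07, adjusted p = 0.0239. The lit libraries of these 3 genes were lower in the median, with overlapping ranges.

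The linker gene with the most counts, Hist1h1a, was not called: it had 393, 532 and 625 CPM in lit libraries, against 428, 533 and 645 CPM in dark ones, nearly equal medians, at -0.07 ± 0.08, adjusted p = 0.78. Of the core histone genes, Hist2h2ac had 38.5, 42.2 and 54.4 CPM lit, against 51.7, 58.6 and 66.2 CPM dark, the smallest adjusted p of the members, at -0.45 ± 0.07, adjusted p = 6.06e-05. Its ranges overlap slightly. Hist2h2bb (-0.35 ± 0.09, adjusted p = 0.0199), Hist1h3c (-0.26 ± 0.07, adjusted p = 0.0247) and Hist1h3g (-0.24 ± 0.07, adjusted p = 0.0221) fell. Hist1h4d, the H4 gene with the most counts, was at 0.02 ± 0.07, adjusted p = 0.919, and Hist4h4 at -0.17 ± 0.14, adjusted p = 0.622. Of the Hist3 members Hist3h2ba was at -0.12 ± 0.14, adjusted p = 0.772, Hist3h2a at 0.47 ± 0.47, adjusted p = 0.714 and Hist3h2bb-ps at -0.45 ± 0.22, adjusted p = 0.286. Within batch 1 and batch 2 the log2 changes were -0.30 and -0.55 for Hist1h1c, -0.25 and -0.37 for Hist1h1e and -0.54 and -0.40 for Hist2h2ac.

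Hist1h1c, Hist1h1d, Hist1h1e and Hist2h2ac were called in all 12 fits that left out a library. Hist1h3g was called in 9 of them, Hist1h3c in 8 and Hist1h1b and Hist2h2bb in 7 each. The number called was 4 without dark LiTEC 0 h replicate 3 or lit WT 0 h replicate 2, and 5 without lit LiTEC 0 h replicate 1 or dark WT 0 h replicate 3. Of the 10 embryonic stem cell markers, 3 also fell in lit libraries at 0 h (Sox2 -0.25 ± 0.05, adjusted p = 0.000655; Tdgf1 -0.22; Zfp42 -0.13), the median of the 10 was -0.14, and the median ribosomal RNA share was 12.7% lit, against 11.4% dark; their part in the result was not tested.

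**Figure D3:**
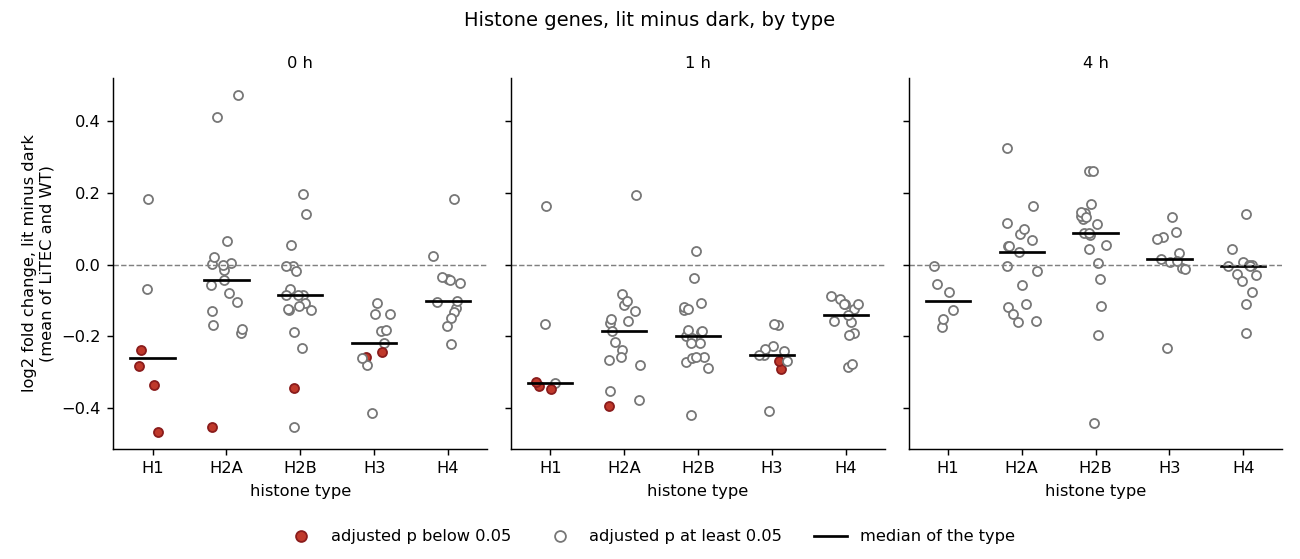
Log2 fold change of each tested member, lit against dark, as the mean of LiTEC and WT cells, by histone type (horizontal axis) at 0, 1 and 4 h after the light; filled points had an adjusted p below 0.05 and lines mark the type median. There are 8 filled points at 0 h, 4 of them H1 genes, 6 at 1 h and 0 at 4 h.

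At 1 h the mean over cell kinds gave 6 members lower in lit libraries and 0 higher, where 0.467% of all genes fell and 0.676% rose. The median was -0.20, against 0.00 over all genes, and 95.5% of members lay below 0, against 50.3% of all genes. Linker genes were again among them: Hist1h1e had 77.5, 104 and 113 CPM lit, against 102, 127 and 135 CPM dark, at -0.35 ± 0.06, adjusted p = 0.00102. Hist1h1d had 167, 193 and 217 CPM lit, against 212, 235 and 282 CPM dark, at -0.33 ± 0.06, adjusted p = 0.00222. Hist1h1b had 146, 158 and 189 CPM lit, against 177, 204 and 224 CPM dark, at -0.34 ± 0.07, adjusted p = 0.00305. The ranges of Hist1h1d and Hist1h1b overlap at their edges, and the lit median of Hist1h1e lies above its lowest dark library. Hist2h2ac had 28.4, 31.7 and 39.5 CPM lit, against 39.1, 41.5 and 48.2 CPM dark, at -0.40 ± 0.07, adjusted p = 0.00188, with a slight overlap. Hist1h3g had 64.1, 74.6 and 80.2 CPM lit, against 80.3, 85.7 and 101 CPM dark, without overlap, at -0.27 ± 0.07, adjusted p = 0.0362, and Hist1h3a was at -0.29 ± 0.07, adjusted p = 0.0264. In 2 members the lit libraries lay wholly below the dark ones, against 0.231% of all genes.

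Hist1h1c at 1 h missed the threshold at -0.33 ± 0.09, adjusted p = 0.0639, and Hist1h1a was at -0.16 ± 0.08, adjusted p = 0.46. Hist1h1b, Hist1h1d, Hist1h1e and Hist2h2ac were called in all 12 fits that left out a library, Hist1h3a in 6 and Hist1h3g in 4. The number called was 11 without lit LiTEC 1 h replicate 1, 11 with the replicate block and 10 with DESeq2. The stem cell markers had 0 calls at 1 h and a median of 0.00, and the median ribosomal RNA share was 11.3% lit, against 11.04% dark. At 4 h, 0 members were called, where 0.104% of all genes rose and 0.17% fell. At an unadjusted p below 0.05 there were 3 members, DESeq2 called 0, and the median was 0.01. Without dark WT 4 h replicate 3, the library with the most ribosomal RNA, 0 members were called and the median was 0.002. At that time Hist1h1c had 202, 241 and 283 CPM lit, against 216, 257 and 379 CPM dark, and Hist2h2ac 48.6, 56.2 and 60.4 CPM lit, against 51.8, 55.6 and 61.7 CPM dark, so lit and dark ranges overlapped broadly.

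**Figure D4:**
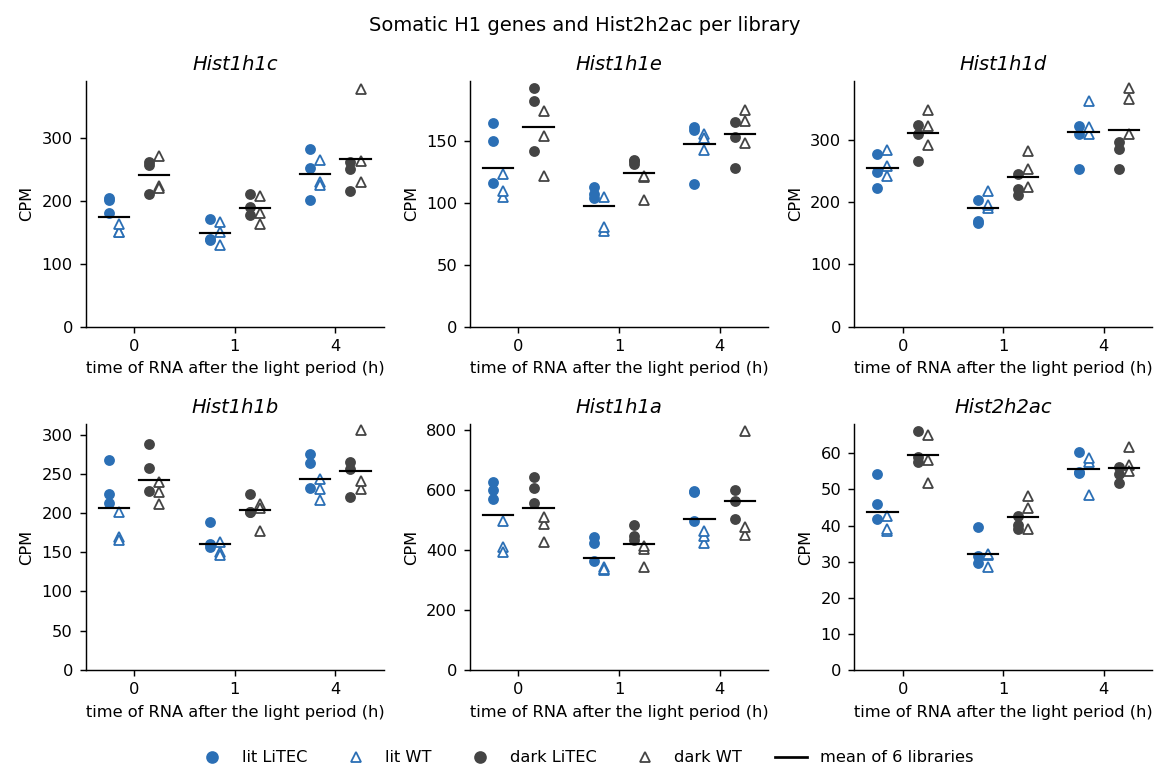
Level in CPM (vertical axis) of Hist1h1c, Hist1h1e, Hist1h1d, Hist1h1b, Hist1h1a and Hist2h2ac in every library at 0, 1 and 4 h (horizontal axis), with lit in blue and dark in grey, LiTEC as filled circles, WT as open triangles, and short horizontal lines at the means of 6 libraries. For Hist1h1c at 0 h the lit mean is 175 CPM and the dark mean 241 CPM, and for Hist1h1a they are 516 and 538 CPM.

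LiTEC cells were compared with WT cells over the 3 times together, which sets 9 libraries against 9 in the dark and 9 against 9 after light. In the dark 6 members were higher and 4 lower in LiTEC cells, where 23.9% of all genes were higher and 23.7% lower, and in lit libraries 7 were higher and 2 lower, where 22.2% were higher and 21.2% lower. Calls in either direction made up 10 and 9 of the 66 members, against 47.6% and 43.4% of all genes, and the medians were 0.03 in the dark and 0.06 lit. No H3 or H4 gene was called in the dark. The libraries of the cell kinds overlapped for every member called.

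The largest called differences in the dark were in germ-cell histones with few counts. Hist1h1t had 2.07, 4.05 and 6.33 CPM in dark LiTEC libraries (lowest, median and highest of 9), against 1.29, 2.42 and 4.11 CPM in dark WT libraries, at 0.72 ± 0.18, adjusted p = 0.00105. In lit libraries Hist1h1t was not called (0.12 ± 0.17, adjusted p = 0.616). Hist1h2aa had 2.50, 3.56 and 5.22 CPM in dark LiTEC libraries, against 1.93, 2.48 and 3.35 CPM in dark WT libraries, at 0.45 ± 0.14, adjusted p = 0.00653, and in lit libraries it was at 0.56 ± 0.14, adjusted p = 0.00119. Hist1h2ba had 1.80, 2.18 and 2.67 CPM in dark LiTEC libraries, against 0.652, 1.43 and 2.00 CPM in dark WT libraries, at 0.73 ± 0.22, adjusted p = 0.00667, and in lit libraries it was at 0.81 ± 0.23, adjusted p = 0.00382. The medians of these 3 genes were higher in LiTEC cells while the ranges overlapped. For Hist1h2ba the lit difference was -0.18 within batch 1 and 0.98 within batch 2, so it did not hold in batch 1, and the dark difference of Hist1h2aa was 0.11 within batch 1 and 0.52 within batch 2. Beside these, the testis germ cell markers summed to 2.84 to 9.94 CPM in LiTEC libraries (median 4.50), against 5.97 to 12.2 CPM in WT libraries (median 7.14), with 4 of 8 at 0 throughout; 2 of 3 tested fell in the dark, Sycp3 (-0.67) and Ldhc (-2.06). The oocyte markers, nearly all Zp3, summed to 13.9 to 24.5 CPM in LiTEC libraries (median 19.3), against 5.06 to 10.4 CPM in WT libraries (median 6.68); their part in the result was not tested.

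Among linker genes, Hist1h1a had 364, 569 and 625 CPM in lit LiTEC libraries, against 332, 411 and 496 CPM in lit WT libraries, at 0.36 ± 0.07, adjusted p = 3.34e-05. In the dark Hist1h1a had 434, 556 and 645 CPM in LiTEC libraries, against 341, 451 and 796 CPM in WT libraries, at 0.18 ± 0.07, adjusted p = 0.0255. The highest of all, 796 CPM, was dark WT 4 h replicate 3, the library with the most ribosomal RNA. Without it the dark difference of Hist1h1a was 0.28, adjusted p = 5.37e-06, and the dark WT mean 439 ± 54.0 CPM (SD, n = 8). Hist1h1d went the other way, at -0.20 ± 0.05, adjusted p = 0.00142 in the dark and -0.13 ± 0.05, adjusted p = 0.0347 lit. Hist1h1b (0.23 ± 0.05, adjusted p = 0.000562) and Hist1h1e (0.19 ± 0.05, adjusted p = 0.00156) were higher in lit LiTEC cells. Of the core genes, Hist1h2af had 34.7, 40.6 and 50.8 CPM in dark LiTEC libraries, against 36.9, 49.8 and 59.7 CPM in dark WT libraries, at -0.31 ± 0.07, adjusted p = 0.000334, and it was lower when lit too (-0.29 ± 0.07, adjusted p = 0.000818). Its exon overlaps Gm44297 on the opposite strand. Hist1h2al (-0.27 ± 0.08, adjusted p = 0.00654), which overlaps Gm44341 on the opposite strand, and Hist1h2ab (-0.24 ± 0.06, adjusted p = 0.00263) were lower in the dark, Hist1h2bj (0.23 ± 0.08, adjusted p = 0.0235) was higher in the dark and Hist1h3a (0.18 ± 0.06, adjusted p = 0.00997) was higher lit. The difference of Hist1h2al leaned on dark WT 4 h replicate 3, which had 250.4 CPM, against a mean of 115 ± 15.1 CPM in the other 8 dark WT libraries. Without that library it was -0.14, adjusted p = 0.0292, and with it -0.05 within batch 1 and -0.34 within batch 2. Hist1h2ab was at -0.18, adjusted p = 0.013 without it, and Hist1h2bj was no longer called (0.18, adjusted p = 0.0528). The dark count was then 5 members higher and 5 lower.

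Of the Hist3 and Hist4 members, Hist3h2ba was higher in LiTEC cells at 0.29 ± 0.11, adjusted p = 0.029 in the dark and 0.29 ± 0.12, adjusted p = 0.0436 lit. Within batch 1 the dark difference of Hist3h2ba was -0.05, against 0.44 in batch 2, and it was called in 10 of 18 dark and 6 of 18 lit fits that left out a library. Hist4h4 (0.06 dark, 0.11 lit), Hist3h2a (0.34, 0.27) and Hist3h2bb-ps (0.31, 0.28) were not called. In the dark Hist1h1a was called in 14 of 18 such fits and Hist1h2bj in 15 of 18, and lit Hist1h1d in 9 of 18, with adjusted p up to 0.0836, 0.0761 and 0.0995. The lit count was 14 without lit WT 0 h replicate 3.

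**Figure D5:**
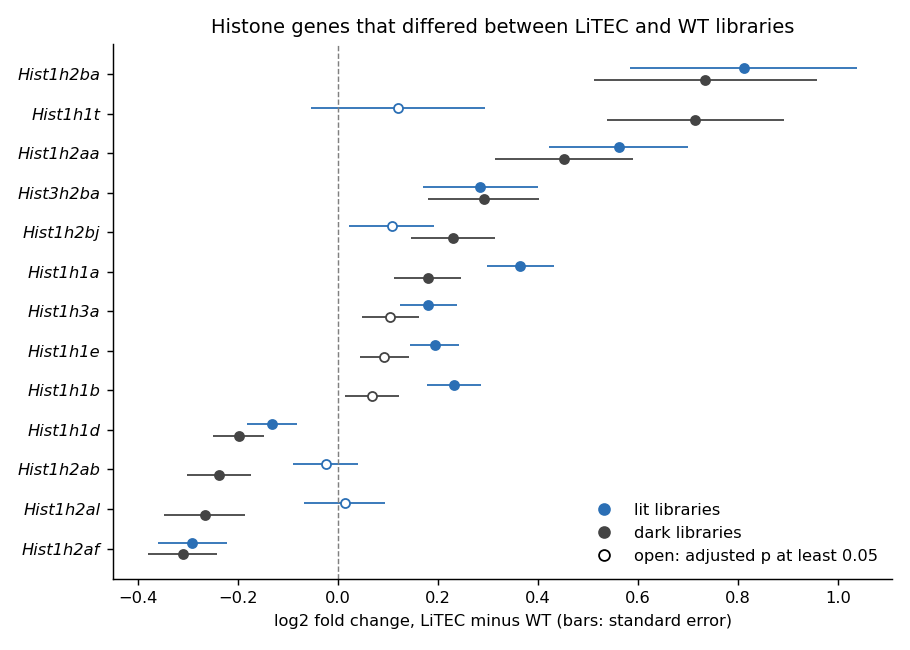
Log2 fold change, LiTEC against WT, with its SE (horizontal axis) for the 13 members called in lit or dark libraries (vertical axis); blue is lit, drawn above, and grey is dark, and open points were not called. In the dark Hist1h2ba, Hist1h1t and Hist1h2aa lie furthest to the right, whereas lit Hist1h1t lies at 0.12. Hist1h2af, Hist1h1d and Hist1h2ab are left of 0 in both.

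Genes that make or handle these histones were followed beside them. In the dark at 1 h against 0 h, 0 of 32 S-phase genes were called in either direction (median 0.04), 0 of 27 factors of histone mRNA transcription, 3′ end processing and decay (median -0.01) and 0 of 11 replication-independent histone genes (median 0.00). At an unadjusted p below 0.05 edgeR's test found 7, 4 and 1 of them. Slbp averaged 114 ± 6.02 CPM at 1 h and 109.7 ± 5.76 CPM at 0 h (0.06 ± 0.05, adjusted p = 0.724), Npat 106 ± 8.51 CPM at 1 h and 107 ± 9.72 CPM at 0 h (-0.01 ± 0.04, adjusted p = 0.966) and H2afz, which encodes the replication-independent H2A.Z, 389.8 ± 35.2 CPM at 1 h and 390.2 ± 36.6 CPM at 0 h (-0.00 ± 0.06, adjusted p = 1). Of 15 histone chaperone genes, Hira, which deposits H3.3, rose (0.24 ± 0.05, adjusted p = 0.0169) and Asf1b, which carries H3 and H4 to newly made chromatin, fell (-0.18 ± 0.04, adjusted p = 0.0181). The 14 tested non-polyadenylated RNAs had 0 calls, 0 at an unadjusted p below 0.05, and a median of -0.16. In lit libraries at 1 h against 0 h, 4 S-phase genes rose and 0 fell, Cdt1 (0.23), Mcm10 (0.16) and Rrm2 (0.11) among them, with a list median of 0.06, and of the processing factors 3 rose and 1 fell. Those were Pcf11 (0.24), Coil (0.18), Cstf3 (0.15) and Sympk (-0.12).

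At 4 h against 1 h in the dark, where 38 histone members rose, 11 of 32 S-phase genes fell and 0 rose (median -0.10), where 9.89% of all genes fell, Tyms (-0.24), Mcm10 (-0.22) and Uhrf1 (-0.21) among them. Of the processing factors 9 fell and 1 rose, with Pcf11 at -0.70 ± 0.05, adjusted p = 1.45e-11. The non-polyadenylated RNAs had 0 calls and a median of 0.22. The genes listed here as replication-independent had 2 calls higher, H2afx (0.23) and Cenpa (0.12), and 1 lower, H1f0 (-0.24). All list values at 4 h against 1 h include dark WT 4 h replicate 3, the library with the most ribosomal RNA, and were not taken without it.

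In the light comparison at 0 h, as the mean of cell kinds, 2 genes listed here as replication-independent fell, a label not tested in these data. They were Cenpa, the centromeric H3 (-0.21 ± 0.04, adjusted p = 0.00107), and H2afx, the H2A variant phosphorylated at DNA breaks (-0.24 ± 0.06, adjusted p = 0.00951). The list median was -0.06. At 1 h Cenpa (-0.24 ± 0.04, adjusted p = 0.000816) and H2afx (-0.23 ± 0.06, adjusted p = 0.0326) fell too. The chaperone gene Ubn1, a partner of HIRA, was higher at 0 h (0.23 ± 0.04, adjusted p = 0.000345) and at 1 h (0.23 ± 0.04, adjusted p = 0.00173). Of the S-phase genes Cdc6 was higher at both times (0.20 and 0.24), Gins1 was lower at 0 h (-0.20) and Gins3 was higher at 1 h (0.25). The 27 processing factors had 0 calls at either time and 5 at an unadjusted p below 0.05 at each, with medians of 0.01 and 0.02. Slbp was at -0.00 ± 0.05, adjusted p = 0.995, Npat at 0.09 ± 0.04, adjusted p = 0.334 and H2afz at -0.09 ± 0.06, adjusted p = 0.494 at 0 h. Between LiTEC and WT cells in the dark, 2 processing factors were higher and 13 lower and 5 S-phase genes were higher and 15 lower, where 23.9% of all genes were higher and 23.7% lower, and Slbp, Npat and H2afz were not called.

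Members were last set apart by the annotated end of their transcript, as a description with no test. At 1 h against 0 h in the dark the median log2 fold change was -0.36 in the 22 tested members whose transcript runs at least 100 bases past the stem-loop, -0.37 in the 20 where it runs less far and -0.33 in the 24 without a stem-loop as annotated. It was -0.35 in the 30 tested members that share over 50% of their windows with another gene, whose counts could be split between copies, and -0.35 in the other 36. For light against dark at 0 h, as the mean of cell kinds, the corresponding medians by transcript end were -0.11, -0.11 and -0.11.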

How the data were processed

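Gene-level counts of 36 RNA-seq libraries (12 groups of 3) were deposited by the authors as whole numbers in a single table of 54842 genes. The submitters' processing notes name featureCounts, FastQC and the build mm10 (GRCm38). The aligner, the strand setting, tool versions and the treatment of reads with several matches: not given in the sources used here. Per the labels, replicate 1 was batch 1 and replicates 2 and 3 were batch 2.

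From these counts, edgeR 4.0.16 (limma 3.58.1, R 4.3.3) kept genes by filterByExpr with a minimum count of 10 (18193 genes), scaled by TMM and fitted group and batch over all 36 libraries, with 23 residual degrees of freedom. Quasi-likelihood F tests were adjusted by Benjamini-Hochberg over all genes tested, and a gene was called, and said to rise or fall, at an adjusted p below 0.05. Some counts, at an unadjusted p or under an alternative fit, have no share over all genes beside them. Such counts describe the members only and make no comparison with all genes. CPM use TMM-scaled library sizes, and within-batch values are differences of log2(CPM + 0.5). Depth was 11132970 to 21842256 counts per library. Tested on simulated counts for dark 1 h against 0 h (17757 genes, 50 changed genes per size), the fit recovered 92%, 70%, 66% and 98% of log2 changes of -1, -0.5, 0.5 and 1. The simulated counts held no batch or replicate effect and no change smaller than 0.5. The rates therefore do not tell how many of the smaller changes of members the test would find.

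The members, the gene lists and the marker lists were chosen with earlier results of these data known. Genes named are all members called in a comparison where at most 24 were, otherwise the 12 largest changes in each direction, the 3 members of each type with the highest mean CPM, every Hist3 and Hist4 member tested, up to 4 called genes of each other list, and Slbp, Npat and H2afz. Comparisons of lit 1 h with lit 0 h, of dark 4 h with dark 1 h, and of dark 1 h with dark 0 h in each cell kind were added after the data had been seen, as were the fits without both libraries richest in ribosomal RNA and the within-batch values. Libraries with the same replicate number deviated together in 18 of 18 lit-dark pairs of libraries (correlations of 0.231 to 0.511, all over 0.1), so the number pairs libraries, from the data and the batch in the labels. Batch may enter these correlations, since replicate 1 was batch 1 in every group. The main fit holds batch but not the replicate number, and counts that moved with the number as a block are given beside it. Libraries of a group differed beyond sampling noise (chi-square per degree of freedom of 4.07 to 158), so none was counted as a repeat of another. Alternatives were DESeq2 1.42.0, its size factors, other filters, no batch term, batch 2 alone, the replicate block, the compared groups alone, and leaving out the ribosomal RNA loci or each library.

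Transcripts came from GENCODE M21 and promoters from RefSeq (GRCm38.p6); 53229 of 54842 genes, and all 70 members, matched GENCODE. Counts, not molecules, were tested, since reads carry no molecular identifiers. 1 gene of the S-phase list is not reported by name here.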

Additional observations from a re-analysis of the deposited data

How the results depend on the processing

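No called member changed direction under any alternative, and in single-gene fits 3237 values kept their call and 472 lost it. With RLE size factors, a minimum count of 30 or the ribosomal RNA loci left out, every count of members called stayed within 1.5 times. The cause of the changes that follow was not tested. The counts of members under these alternatives were not set against all genes. They do not show whether the number called moved in the members alone or in all genes. With no expression filter the counts were 48 for dark 1 h against 0 h, 45 in LiTEC and 17 in WT cells, 11 for dark 4 h against 0 h, 5 for light in LiTEC cells at 0 h and 5 at 1 h, 15, 17 and 7 for light in WT cells at 0, 1 and 4 h, 18, 24 and 2 for the light mean at 0, 1 and 4 h, 1 for the difference of the light effect at 4 h, and 18 dark and 23 lit for LiTEC against WT. With no batch term they were 9 for dark 1 h against 0 h and 1 in LiTEC cells, 1 for dark 4 h against 0 h, 3 and 3 for the light mean at 0 and 1 h, and 2 and 1 for light in WT cells at 0 and 1 h. In batch 2 only they were 10 for dark 1 h against 0 h and 6 in LiTEC cells, 1 for dark 4 h against 0 h, 5 for the light mean at 0 h, and 3 and 0 for light in WT cells at 0 and 1 h. With the replicate block, which ended no call, they were 39 for dark 1 h against 0 h, 19 in LiTEC and 2 in WT cells, 11 for the light mean at 1 h, 1 for light in LiTEC cells at 0 h, and 8 and 4 for light in WT cells at 0 and 1 h. DESeq2 called 18 and 3 for dark 1 h against 0 h in LiTEC and WT cells, 1 for light in LiTEC cells at 0 h, 10 for the light mean at 1 h and 5 for light in WT cells at 1 h. Fits of only the groups compared called 39 for dark 1 h against 0 h, 17 in LiTEC and 3 in WT cells, 2 for dark 4 h against 0 h and 5 for light in LiTEC cells at 1 h. With the ribosomal RNA share as a covariate they were 17 and 1 for dark 1 h against 0 h in LiTEC and WT cells, 1 for light in LiTEC cells at 0 h, 10 for the light mean at 1 h and 4 for light in WT cells at 1 h. Without both libraries richest in ribosomal RNA, an alternative chosen after the data had been seen, they were 38 for dark 1 h against 0 h and 23 in LiTEC cells, 1 for dark 4 h against 0 h, 11 for the light mean at 1 h, 9 and 4 for light in WT cells at 0 and 1 h, and 15 for LiTEC against WT lit.

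Leaving out 1 library at a time, the counts ran from 11 to 34 for dark 1 h against 0 h, 0 to 15 in LiTEC cells and 0 to 0 in WT cells, 33 to 49 for lit 1 h against 0 h, 30 to 47 for dark 4 h against 1 h, and 0 to 5 for dark 4 h against 0 h. They ran from 4 to 12 for the light mean at 0 h, 4 to 11 at 1 h and 0 to 0 at 4 h, from 0 to 1, 0 to 2 and 0 to 0 for light in LiTEC cells at 0, 1 and 4 h, from 2 to 10, 0 to 2 and 0 to 0 in WT cells, from 0 to 0 for the difference of the light effect, and from 8 to 13 dark and 7 to 14 lit for LiTEC against WT.

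With 3 libraries a group, changes of the size seen for most members lie near the limit of the test, and members under about 10 CPM rest on few counts. Poly(A) selection, the strand setting and reads shared between near-identical copies limit what a single member's value can show.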
